A study of Mus musculus with 13 samples.

Results

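Chat, Slc5a7, Slc18a3, Ache and Slc10a4 are genes of cholinergic transmission, the chemical signalling by which motoneurons drive muscle. They form a list fixed by gene name, drawn up with earlier results of these data known, and all 5 were found among the 48709 mouse genes counted in this series. All 5 were also among the 17403 genes with enough reads to be tested. A motoneuron makes acetylcholine from choline and acetyl-CoA, packs it into synaptic vesicles in exchange for protons, and releases it at the neuromuscular junction. There an esterase splits it, and the terminal takes the choline up again for a new round. Chat encodes choline acetyltransferase, the enzyme of synthesis. Slc5a7 encodes the high-affinity choline transporter, which supplies the choline. Slc18a3 encodes the vesicular acetylcholine transporter, Ache the acetylcholinesterase, and Slc10a4 an orphan carrier of synaptic vesicles from the family of bile acid transporters.

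RNA was sequenced from spinal motoneurons cut out one by one with a laser from cresyl violet-stained lumbar sections, as a pool of 500 cells for each mouse. All 13 mice carried the SOD1-G93A transgene, a mutant human SOD1 that causes a motoneuron disease resembling amyotrophic lateral sclerosis, and all were 65 days old, so the data hold no healthy control. The AAV-miR SOD1 group (n = 4) had received, on postnatal day 2 and into the cerebral ventricles, an adeno-associated virus that makes astrocytes, not the motoneurons sequenced here, express an artificial microRNA directed at human SOD1. The AAV-miR ctrl group (n = 5) had received the AAV-miR ctrl vector, also on postnatal day 2, and the non-injected mice (n = 4) were littermates that received no virus. Replicate numbers are those of the sample titles, 1 to 4 for AAV-miR SOD1, 1, 3, 4, 5 and 6 for AAV-miR ctrl and 2, 3, 5 and 6 for non-injected.

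Depth ran from 13.9 to 37.4 megacounts assigned to genes, and the level that 3 counts would give ran from 0.0802 to 0.216 CPM (counts scaled to library size). The smallest count of any of the 5 genes in any library was 825, so counting error is small beside the differences between libraries. The 4 libraries numbered 5 or 6 were all controls, and group and number cannot be told apart there. They were also the 4 deepest, at 29.7 to 37.4 megacounts, while the other libraries had at most 23.1. Their share of reads aligned to several places was lower too, 42.27% to 46.57% against 49.85% to 56.75%. In 2 libraries the column header contradicted the label: non-injected replicate 3 carried a header of the AAV-miR ctrl group, and AAV-miR ctrl replicate 3 a header of the non-injected group. The labels were followed, and results are also given with these 2 libraries exchanged, since non-injected replicate 3 had the highest level of 4 of the 5 genes. As a check of the captures, 5 neuronal cytoskeleton genes abundant in motoneurons but not particular to them (Nefl, Nefm, Nefh, Prph and Stmn2) had a summed level of 5159 to 17981 CPM, against 14.2 to 53.2 CPM for 5 genes of inhibitory and excitatory interneurons. RNA of other cells was present too, with 6 erythroid genes at 3533 to 47051 CPM and 5 oligodendrocyte genes at 998 to 4300 CPM. The erythroid sum exceeded the cytoskeleton sum in every AAV-miR SOD1 library. It also did so in AAV-miR ctrl replicates 1, 3 and 4 and in non-injected replicate 2.

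Chat and Slc18a3 share a locus. In GRCm38, Chat (ENSMUSG00000021919) spans chr14:32408203-32465989 on the minus strand. Slc18a3 (ENSMUSG00000100241) spans chr14:32462438-32464850 on the same strand, a single exon of 2413 bases that lies wholly within the first intron of 4 of the 8 annotated Chat transcripts. The annotated starts of the 2 genes are 1139 bases apart, and they share no exonic base. A read from unspliced Chat RNA across that intron would be counted as Slc18a3, and the 2 sources cannot be told apart in gene counts. Slc5a7 (ENSMUSG00000023945) lies at chr17:54273590-54299034 on the minus strand. Ache (ENSMUSG00000023328, chr5:137287519-137294466) and Slc10a4 (ENSMUSG00000029219, chr5:73006883-73012955) lie on the plus strand of chromosome 5, 64.3 megabases apart. The exons of Ache share 98 bases (2.12% of its exonic length) with Gm42456, a noncoding RNA gene of the opposite strand. The strand setting of the counting is not given in the sources used here, so that reads of those bases cannot be assigned to one strand.

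The start regions of Chat and Slc18a3 are printed because the 2 genes sit in one locus with separate starts, and that of Ache because of the other 4 genes it had the highest Pearson's r with Slc18a3 (by Spearman's rho it was Slc10a4). Each sequence is the RefSeq GRCm38.p6 stretch of 300 bases, 250 before and 50 after the start that RefSeq annotates, which for Chat and Ache differs from the start of the GENCODE span given above, written 5′ to 3′ on the gene's own strand. Capitals mark GGGCGG or its complement CCGCCC (the core of a GC box) and CACGTG (an E-box).
Chat, chr14:32465860-32466159, minus strand: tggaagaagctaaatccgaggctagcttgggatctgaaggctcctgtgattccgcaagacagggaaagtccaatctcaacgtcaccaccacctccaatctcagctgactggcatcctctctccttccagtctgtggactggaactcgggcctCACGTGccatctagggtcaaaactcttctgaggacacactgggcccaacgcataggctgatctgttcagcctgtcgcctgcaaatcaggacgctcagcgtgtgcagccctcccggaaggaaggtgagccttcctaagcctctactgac
Slc18a3, chr14:32464801-32465100, minus strand: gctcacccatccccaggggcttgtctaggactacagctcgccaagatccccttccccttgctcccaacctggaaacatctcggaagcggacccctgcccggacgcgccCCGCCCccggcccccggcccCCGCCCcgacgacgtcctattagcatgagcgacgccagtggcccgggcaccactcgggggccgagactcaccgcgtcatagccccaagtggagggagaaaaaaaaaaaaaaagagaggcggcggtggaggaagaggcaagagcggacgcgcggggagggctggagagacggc
Ache, chr5:137288004-137288303, plus strand: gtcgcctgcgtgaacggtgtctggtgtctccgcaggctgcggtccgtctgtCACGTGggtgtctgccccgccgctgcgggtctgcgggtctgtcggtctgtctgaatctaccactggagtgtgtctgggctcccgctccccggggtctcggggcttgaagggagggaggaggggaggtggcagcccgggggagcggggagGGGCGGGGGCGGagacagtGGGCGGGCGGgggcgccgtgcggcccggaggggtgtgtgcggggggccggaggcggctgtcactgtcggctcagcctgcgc

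The 5 start regions differed in composition. Their GC content was 55.7% for Chat, 44.7% for Slc5a7, 67.0% for Slc18a3, 74.0% for Ache and 57.3% for Slc10a4, against a median of 52.7% over 32851 RefSeq start regions of the same length. Searched on both strands, GGGCGG occurred 2 times at Slc18a3, 4 times at Ache and 4 times at Slc10a4, and was not found in the windows of Chat and Slc5a7. Some of the matches at Ache and Slc10a4 overlap or adjoin each other, and 35.7% of all 32851 windows hold the motif. CACGTG occurred once at Chat and once at Ache, and 7.15% of all windows hold it. TAATTA, a core bound by homeodomain proteins such as the motoneuron regulators Isl1 and Lhx3, was in none of the 5 windows and in 5.29% of all. Its shorter part TAAT occurred 1 time at Slc18a3 and 2 times at Slc10a4, and 58% of all windows hold it. The cyclic AMP response element TGACGTCA was in none of the 5 and in 1.79% of all. Its shorter part TGACG occurred 1 time each at Chat and Slc18a3, and 20.8% of all windows hold it.

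Per kilobase of exon, the vesicular transporter was the most abundant of the 5 transcripts and the synthesising enzyme the least. Over the 13 libraries, Slc18a3 averaged 160 ± 90.1 CPM per kilobase (SD, n = 13), Slc10a4 82.7 ± 35.7, Ache 61.5 ± 34.9, Slc5a7 52.0 ± 22.1 and Chat 18.7 ± 7.0. Slc18a3 was above Slc10a4 and Slc5a7 above Chat in 13 of 13 libraries. The neighbours in the middle were less separate: Slc10a4 exceeded Ache in 11 of 13 libraries, and Ache exceeded Slc5a7 in 8 of 13, a difference smaller than its own spread (mean log2 ratio 0.14 ± 0.45, SD, n = 13). Although they share a locus, Slc18a3 stood 8.10 ± 2.02 times above Chat on this scale (SD, n = 13). That factor depends on the exonic lengths, 4703 bases over the 8 annotated transcripts of Chat and 2413 for Slc18a3. Without them, the log2 ratio of counts was 2.01 ± 0.36 (SD, n = 13). Reads of unspliced Chat RNA within Slc18a3 could not be set apart on either scale. Among 17363 genes with a known exonic length, Slc18a3 ranked 371, Slc10a4 708, Ache 970, Slc5a7 1116 and Chat 2671.

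**Figure D1:**
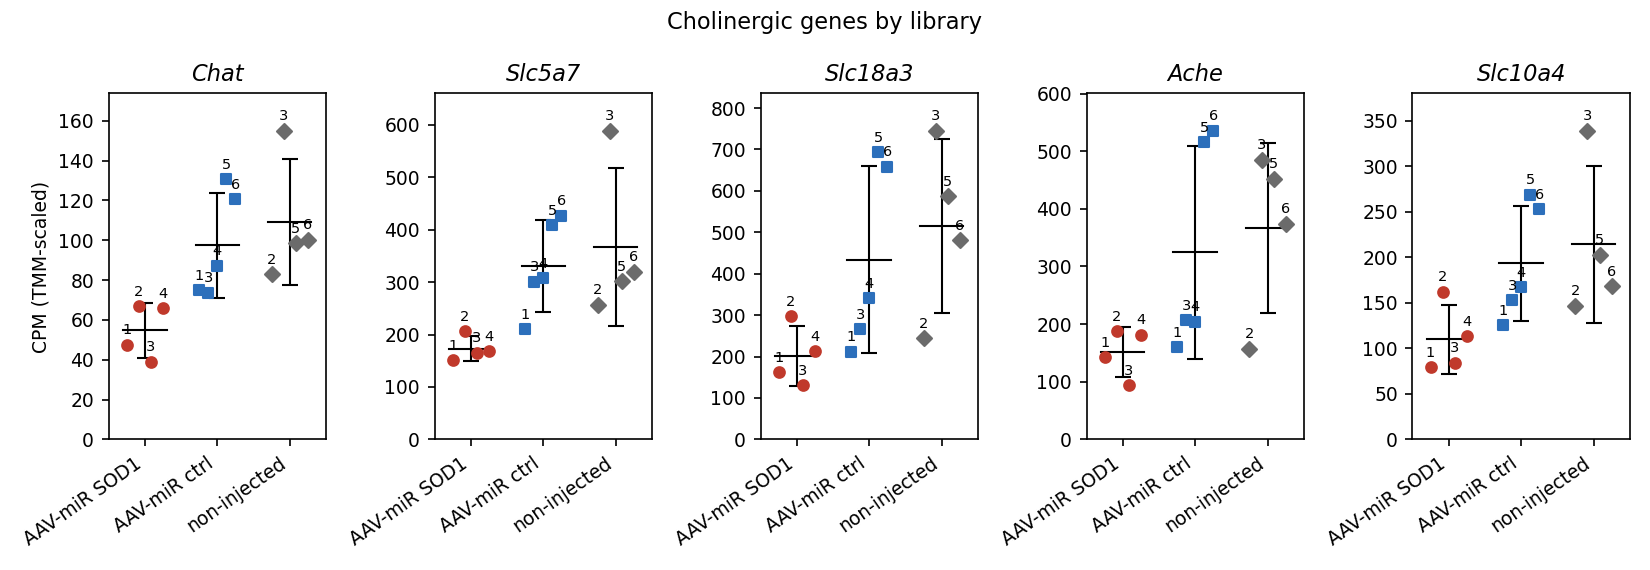
Level of each cholinergic gene (vertical axis, CPM after TMM scaling, from 0) in each of the 13 libraries, by group. Points carry the replicate number, horizontal lines are group means and bars are SD (n = 4, 5 and 4). All 4 AAV-miR SOD1 libraries lie below all 9 controls for Chat and Slc5a7, and the groups overlap for the other 3 genes.

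Chat, which makes the transmitter, was lower in every AAV-miR SOD1 library than in any control. Its level was 47.6, 66.8, 39.1 and 65.9 CPM in AAV-miR SOD1 replicates 1 to 4. It was 74.9, 73.8, 87.2, 131 and 121 CPM in AAV-miR ctrl replicates 1, 3, 4, 5 and 6, and 82.9, 155, 98.5 and 100.4 CPM in non-injected replicates 2, 3, 5 and 6. The groups did not overlap, but the gap between them was narrow, from 66.8 CPM in the highest AAV-miR SOD1 library to 73.8 CPM in the lowest control. The edgeR log2 fold change of Chat was -0.83 ± 0.26 (SE) relative to AAV-miR ctrl (adjusted p = 0.256) and -0.99 ± 0.27 against non-injected (adjusted p = 0.140), both by quasi-likelihood test with Benjamini-Hochberg adjustment over all 17403 genes. Against both control groups together it was -0.91 ± 0.24, with an edgeR adjusted p of 0.0960, so the difference did not pass the threshold of 0.05 in any comparison. Each library was a pool of 500 captured cells. Less Chat RNA per motoneuron, fewer motoneurons among the captured cells and more RNA of other cells cannot be told apart in such a pool.

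Slc5a7, the choline transporter, showed the same separation. It was at 152, 207, 165 and 169 CPM in AAV-miR SOD1 replicates 1 to 4. The AAV-miR ctrl replicates 1, 3, 4, 5 and 6 had 210, 301, 308, 408 and 427 CPM, and the non-injected replicates 2, 3, 5 and 6 had 257, 589, 301 and 320 CPM. The highest AAV-miR SOD1 library (207 CPM) lay only just under AAV-miR ctrl replicate 1 (210 CPM). The spread of Slc5a7 within the AAV-miR SOD1 group was the smallest of the 5 genes, with a coefficient of variation of 13.7%, against 26.7% in AAV-miR ctrl and 41.0% in non-injected. Its edgeR log2 fold change was -0.94 ± 0.27 (SE) relative to AAV-miR ctrl (adjusted p = 0.256), -1.08 ± 0.29 against non-injected (adjusted p = 0.140) and -1.01 ± 0.25 against both control groups (adjusted p = 0.0960).

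Slc18a3, which loads acetylcholine into vesicles, had the most negative fold change but overlapping groups. AAV-miR SOD1 replicates 1 to 4 were at 162, 297, 131 and 213 CPM. AAV-miR ctrl replicates 1, 3, 4, 5 and 6 were at 212, 266, 341, 693 and 658 CPM, and non-injected replicates 2, 3, 5 and 6 at 245, 746, 587 and 482 CPM. Among the controls, those numbered 5 or 6 and replicate 3 of the non-injected mice stood well above the other 4, which lay between 212 and 341 CPM and overlapped AAV-miR SOD1. The edgeR log2 fold change was -1.11 ± 0.41 (SE) relative to AAV-miR ctrl (adjusted p = 0.277), -1.36 ± 0.43 against non-injected (adjusted p = 0.143) and -1.24 ± 0.39 against both control groups (adjusted p = 0.107).

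Ache, which ends the signal by splitting acetylcholine, divided the controls most sharply. It was at 142, 188, 94.2 and 181 CPM in AAV-miR SOD1 replicates 1 to 4. The AAV-miR ctrl replicates 1, 3 and 4, with replicate 2 of the non-injected mice, had 160, 207, 204 and 158 CPM, within or just above the AAV-miR SOD1 range. The remaining 5 controls, replicates 5 and 6 of AAV-miR ctrl and replicates 3, 5 and 6 without injection, had 516, 536, 485, 452 and 374 CPM. The edgeR log2 fold change of Ache was -1.10 ± 0.42 (SE) relative to AAV-miR ctrl (adjusted p = 0.286), -1.28 ± 0.44 against non-injected (adjusted p = 0.149) and -1.19 ± 0.39 against both control groups (adjusted p = 0.117).

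Slc10a4, the orphan vesicle carrier, was at 79.4, 162, 84.3 and 113 CPM in AAV-miR SOD1 replicates 1 to 4. It was at 125, 153, 167, 269 and 253 CPM in AAV-miR ctrl replicates 1, 3, 4, 5 and 6, and at 147, 339, 203 and 168 CPM in non-injected replicates 2, 3, 5 and 6. AAV-miR SOD1 replicate 2 alone reached into the control range, above 3 controls. The edgeR log2 fold change was -0.82 ± 0.32 (SE) relative to AAV-miR ctrl (adjusted p = 0.287), -0.97 ± 0.33 against non-injected (adjusted p = 0.147) and -0.89 ± 0.29 for both control groups (adjusted p = 0.115).

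Of the 5 genes, 0 passed an adjusted p of 0.05 in any comparison by edgeR, and 0 of the 17403 genes did (0% of all genes in each comparison). At an unadjusted edgeR p under 0.05, 5 of 5 were lower in AAV-miR SOD1 against AAV-miR ctrl, where 8.54% of all genes were lower at that level. Against non-injected it was 5 of 5, with 11.5% of all genes, and against both control groups 5 of 5, with 12.1%. Genes whose AAV-miR SOD1 libraries all lay below all libraries of the other group, as Chat and Slc5a7 did, made up 2.46% of all genes against AAV-miR ctrl, 5.81% against non-injected and 1.23% against both control groups. The median log2 fold change of the 5 genes was -0.94, -1.08 and -1.01 in these comparisons, beside -0.04, -0.09 and -0.06 over all genes tested. All 3 comparisons use one set of AAV-miR SOD1 libraries, so they do not add independent evidence.

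AAV-miR ctrl and non-injected differed by less than the standard errors. Between AAV-miR ctrl and non-injected, the 5 log2 fold changes ran from -0.25 ± 0.40 (SE) for Slc18a3 to -0.15 ± 0.31 for Slc10a4, each with an edgeR adjusted p of 1.00. At an unadjusted p under 0.05, 0 of 5 were called, where 2.24% of all genes were lower. The standard errors were 0.25 to 0.41, and the sign depended on the 2 libraries with contradicted headers. With those exchanged all 5 values became positive, from 0.35 for Ache to 0.46 for Slc10a4, and without non-injected replicate 3 they ran from -0.01 to 0.18.

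**Figure D2:**
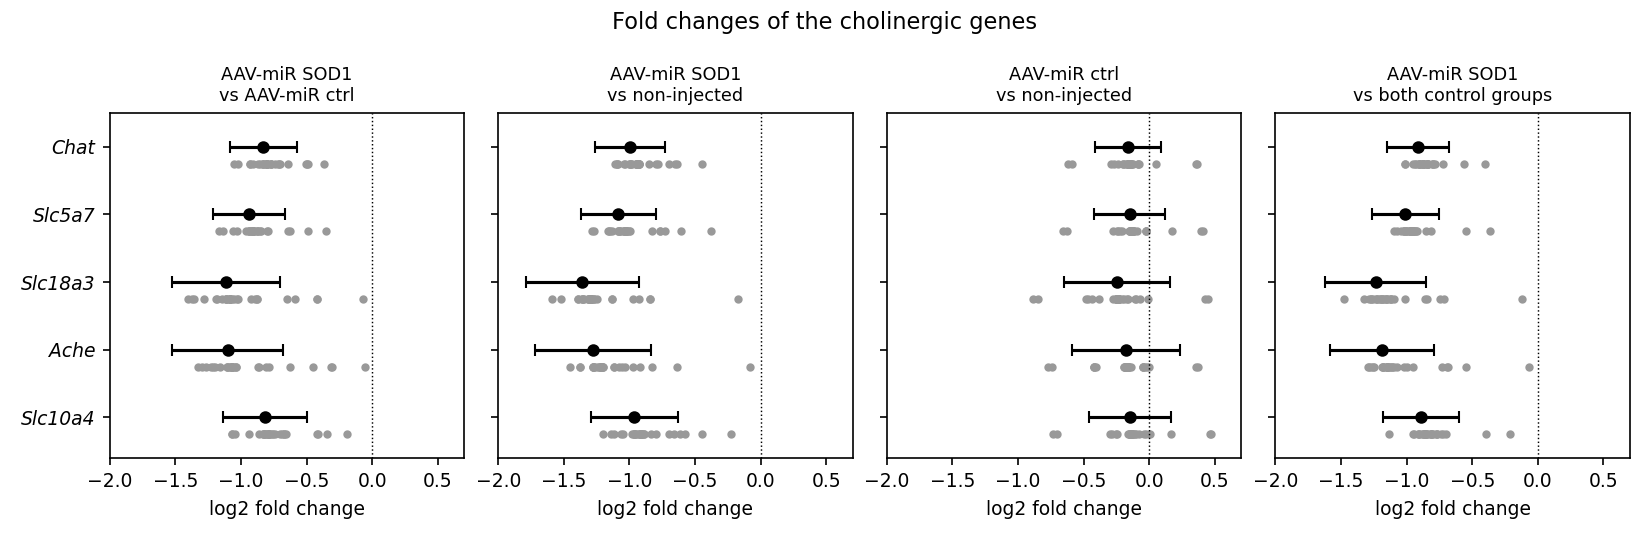
Log2 fold change of each gene (horizontal axis, first group over second) in the 4 comparisons, from edgeR. Black points with bars are the value and its SE, and grey points below are the alternative fits and those leaving out 1 library. The 3 comparisons with AAV-miR SOD1 lie left of 0 in every fit shown, while AAV-miR ctrl against non-injected has values on both sides.

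DESeq2 and limma-voom placed more of the 5 genes past the threshold than edgeR. DESeq2 called 5 of the 5 genes lower in AAV-miR SOD1 against both control groups (adjusted p from 0.00842 to 0.0416), where it called 4.5% of all genes lower. Limma-voom with sample quality weights called 4 of 5 in that comparison (adjusted p from 0.0313 to 0.0480), not Ache (adjusted p = 0.0650), where it called 3.03% of all genes lower. Against non-injected, DESeq2 called Chat, Slc5a7 and Slc18a3, with 2.64% of all genes called lower, and against AAV-miR ctrl it called 0 of 5, with 0.483% of all genes. On simulated counts of 16955 genes with 200 changed, edgeR recovered 20% and DESeq2 32% of the genes changed 2-fold against both control groups. False calls were 11 of 159 by edgeR and 36 of 197 by DESeq2. The simulation drew each gene independently, without the variation that genes share between these libraries, so its rates need not hold here. Leaving out AAV-miR ctrl replicate 1, edgeR called 1694 genes against both control groups, among them Chat, Slc5a7, Slc18a3 and Ache (adjusted p from 0.0258 to 0.0490), with log2 fold changes of -0.95, -1.07, -1.32 and -1.27. In that fit 4.05% of all genes were called lower.

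Which controls were used changed the size of the difference. Among the libraries numbered 1 to 4 alone, the log2 fold changes against AAV-miR ctrl were -0.51 ± 0.28 (SE) for Chat, -0.64 ± 0.30 for Slc5a7, -0.42 ± 0.41 for Slc18a3, -0.31 ± 0.38 for Ache and -0.42 ± 0.34 for Slc10a4, with edgeR adjusted p of at least 0.894. Against non-injected, for which only replicates 2 and 3 have such numbers, they ran from -1.06 for Ache to -1.27 for Slc18a3. With the 2 contradicted libraries exchanged, the values against AAV-miR ctrl ran from -1.05 for Chat to -1.40 for Slc18a3, and those against non-injected from -0.61 for Slc10a4 to -0.98 for Slc18a3. Against both control groups the exchange left them between -0.84 and -1.19. Without non-injected replicate 3, the values against non-injected ran from -0.66 to -1.13.

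The 5 genes varied together from library to library. Over the 13 libraries, Pearson's r between pairs of them ran from 0.858 for Slc5a7 and Ache (Spearman's rho 0.901) to 0.979 for Slc18a3 and Ache (rho 0.945). With each group's mean subtracted, r ran from 0.759 to 0.966. Without the 2 libraries farthest from the median, it ran from 0.854 to 0.972. These values describe libraries that share depth and composition across genes. The mean of the 5 genes on a log2 scale, each centred on its own mean, was -0.68 ± 0.38 (SD, n = 4) in AAV-miR SOD1, 0.22 ± 0.56 (SD, n = 5) in AAV-miR ctrl and 0.41 ± 0.54 (SD, n = 4) in non-injected. Replicate 1 of AAV-miR ctrl (-0.42) and replicate 2 of the non-injected mice (-0.25) lay within the AAV-miR SOD1 range of -1.09 to -0.24, and non-injected replicate 3 was highest at 1.05.

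Other genes were ranked by how closely their levels went with this mean. Of 10345 genes with a mean of at least 3 log2 CPM, the 5 with the highest r over the 13 libraries were Epb41l3 (0.994), Nsg1 (0.993), Scg3 (0.993), Lgi3 (0.991) and Nell1 (0.991), where the 95th percentile of all genes was 0.918. After subtraction of group means they were Nell1 (0.992), Kif5c (0.990), Gnao1 (0.988), Scg3 (0.987) and Epb41l3 (0.987), with a 95th percentile of 0.876. Scg3 encodes a secretogranin of dense-core vesicles, Nsg1 a neuronal endosomal protein, Kif5c a kinesin heavy chain of axonal transport and Gnao1 the alpha subunit of the Go protein. Scg3 was at 62.6 ± 19.6 CPM (SD, n = 4) in AAV-miR SOD1, 119 ± 43.6 (SD, n = 5) in AAV-miR ctrl and 128 ± 44.3 (SD, n = 4) in non-injected.

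The 5 neuronal cytoskeleton genes were compared in the same way. Their median log2 fold change against both control groups was -1.01, equal to 2 decimals to that of the 5 cholinergic genes, and 0 of 5 passed the adjusted threshold. Lower at an unadjusted edgeR p under 0.05 were 5 of 5 against both (12.1% of all genes) and 5 of 5 against non-injected (11.5%). Against AAV-miR ctrl it was 2 of 5, Nefl and Stmn2 (8.54%). Set against the mean log2 CPM of the cytoskeleton genes within each library, the mean log2 CPM of the 5 cholinergic genes was -2.96 ± 0.07 (SD, n = 4) in AAV-miR SOD1, -2.77 ± 0.12 (SD, n = 5) in AAV-miR ctrl and -2.90 ± 0.14 (SD, n = 4) in non-injected. The range in AAV-miR SOD1, -3.03 to -2.90, lay inside that of the 9 controls, -3.08 to -2.61. Taken by group, the controls ran from -2.93 to -2.61 in AAV-miR ctrl and from -3.08 to -2.79 in non-injected. In AAV-miR ctrl only replicate 5 (-2.93) reached into the AAV-miR SOD1 range, and the other replicates lay above it.

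Levels of the markers of other cells were compared in the same libraries. The summed level of 6 erythroid genes (the haemoglobins Hba-a1, Hba-a2, Hbb-bs and Hbb-bt with Alas2 and Slc4a1) was 20903 to 47051 CPM in AAV-miR SOD1, 3533 to 28121 in AAV-miR ctrl and 5544 to 20182 in non-injected. All 6 were detected and tested, and 6 of 6 were higher in AAV-miR SOD1 at an unadjusted edgeR p under 0.05 in each of the 3 comparisons, where 5.99%, 9.36% and 10.2% of all genes were higher. Replicate 1 of AAV-miR ctrl and replicate 2 of the non-injected mice, the 2 controls with the lowest cholinergic mean, had the highest erythroid sums of their groups. With the erythroid mean as a covariate in the edgeR fit, the log2 fold changes against both control groups were -0.41 ± 0.30 (SE) for Chat, -0.37 ± 0.30 for Slc5a7, -0.12 ± 0.48 for Slc18a3, -0.07 ± 0.50 for Ache and -0.21 ± 0.37 for Slc10a4, each with an adjusted p of 1.00. With the number of genes detected as a covariate they ran from -0.40 for Slc10a4 to -0.73 for Ache (adjusted p = 0.998). AAV-miR SOD1 replicates 1, 2 and 3 had more genes detected (23146 to 23275) than any control (21444 to 23103), and replicate 4 had 22317. This covariate therefore also goes with group. Over all genes, the fit with it placed 278 lower against both control groups at an unadjusted edgeR p under 0.05. Every control but replicate 1 of AAV-miR ctrl had a lower erythroid sum than any AAV-miR SOD1 library. Group and erythroid level can therefore hardly be told apart in the erythroid fit. Over all genes, that fit placed 269 lower against both control groups at an unadjusted edgeR p under 0.05, and the main fit 2101. The part of erythroid RNA in the cholinergic difference was not tested. The 6 microglial genes summed to 652 to 890 CPM in AAV-miR SOD1, 377 to 1067 in AAV-miR ctrl and 232 to 567 in non-injected, and 6 astrocyte genes to 434 to 563, 560 to 988 and 516 to 763 CPM. The sums of 5 oligodendrocyte genes (998 to 2539, 1028 to 4300 and 1684 to 2557 CPM) and of 3 endothelial genes (62.3 to 104, 59.1 to 106 and 44.9 to 103 CPM) overlapped across the groups. Nos1, found in some other cholinergic neurons of the spinal cord, was at 4.03 to 21.2, 10.3 to 20.4 and 4.79 to 27.6 CPM. At an unadjusted p under 0.05 against both control groups, 2 of 6 microglial genes were higher (10.2% of all genes) and 1 of 6 astrocyte genes lower (12.1%). That astrocyte gene was Aldoc, at 164 ± 44.8 CPM (SD, n = 4) in AAV-miR SOD1, 335 ± 77.9 (SD, n = 5) in AAV-miR ctrl and 302 ± 74.8 (SD, n = 4) in non-injected. The median log2 fold change of the 6 astrocyte genes was -0.50 against AAV-miR ctrl and -0.01 against non-injected, beside -0.04 and -0.09 over all genes. Of the oligodendrocyte genes 0 of 5 were called, of the endothelial 0 of 3 and of the interneuron genes 0 of 5. No listed gene was at 0 in every library. The part of glial cells in the cholinergic difference was not tested.

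**Figure D3:**
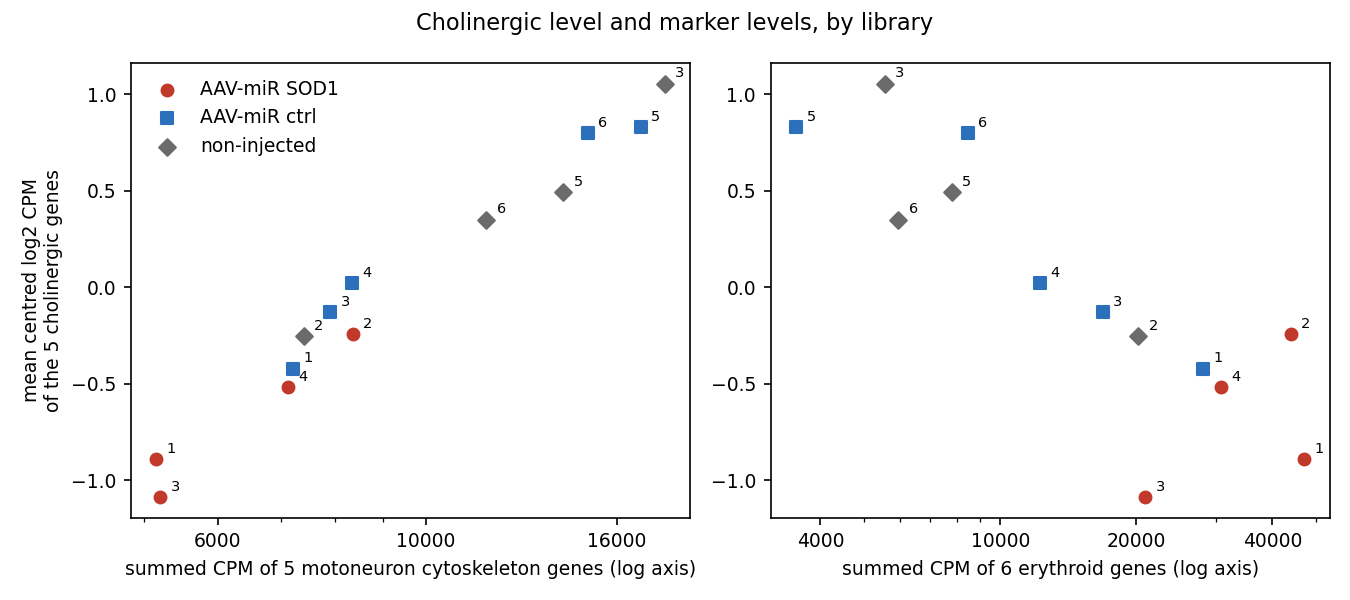
Mean centred log2 CPM of the 5 cholinergic genes (vertical axis) against the summed CPM of 5 motoneuron cytoskeleton genes (left) and 6 erythroid genes (right), both on log axes. Each point is 1 library with its replicate number. The cholinergic mean follows the cytoskeleton sum closely, and the 4 AAV-miR SOD1 libraries lie at 20903 CPM or more of the erythroid genes, as does replicate 1 of AAV-miR ctrl.

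Within a library, no difference between groups in the proportions among the 5 genes passed a test. The log2 ratio of Slc18a3 to Chat counts was 1.84 ± 0.21 (SD, n = 4) in AAV-miR SOD1, 2.03 ± 0.40 (SD, n = 5) in AAV-miR ctrl and 2.17 ± 0.43 (SD, n = 4) in non-injected. The difference of AAV-miR SOD1 from both control groups was -0.26 (two-sided exact permutation p = 0.248, adjusted p = 0.945 over 16 ratio tests). For Ache over Chat the difference from both control groups was -0.17 (exact permutation p = 0.491, adjusted p = 0.945). For Slc5a7 over Chat it was -0.06 (exact permutation p = 0.656) and for Slc10a4 over Chat 0.02 (exact permutation p = 0.846), both with an adjusted p of 0.945. The smallest p these designs allow is 0.00794 for 4 against 5 libraries, 0.0286 for 4 against 4 and 0.0014 for 4 against 9. All 16 adjusted p were at least 0.945, which does not show that the proportions are equal.

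**Figure D4:**
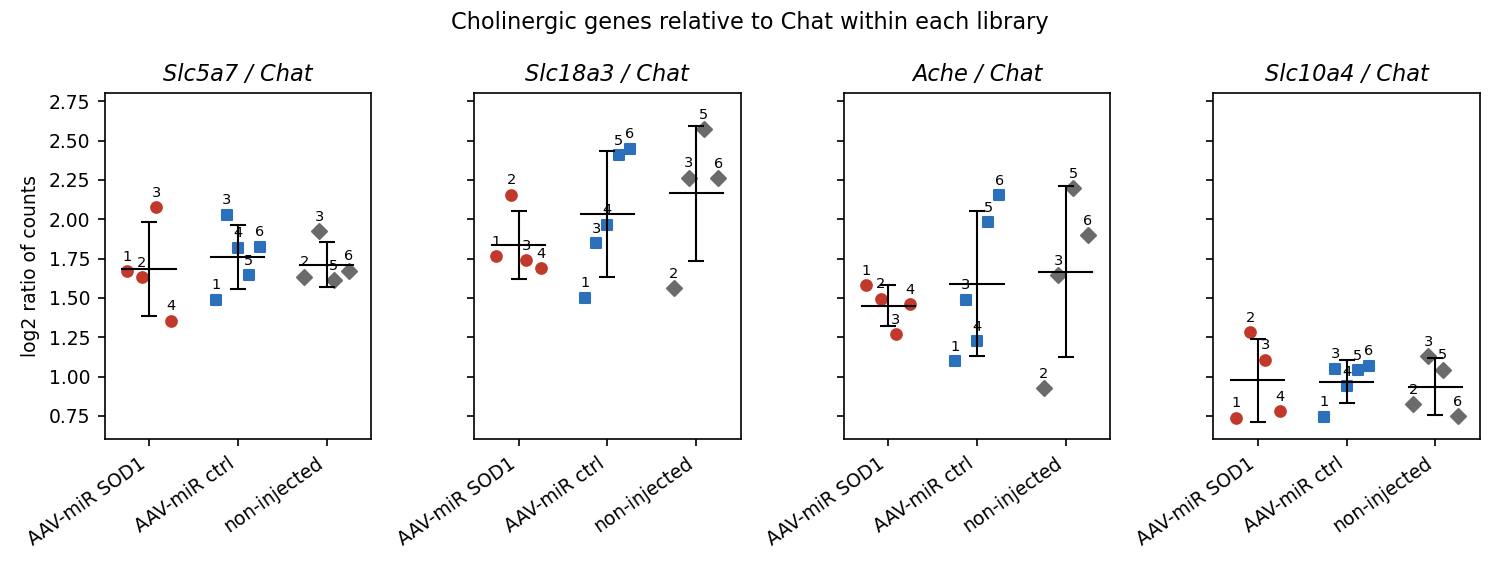
Log2 ratio of the counts of 4 genes to those of Chat (vertical axis) in each library, by group. Points carry the replicate number, lines are means and bars SD (n = 4, 5 and 4). The controls numbered 5 or 6 have the highest Ache ratios, 1.90 to 2.20, above all 9 other libraries.

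The ratio that varied most was that of Ache. Over Chat it was 1.90 to 2.20 on the log2 scale in the 4 controls numbered 5 or 6, 0.93 to 1.64 in the 5 controls numbered 1 to 4 and 1.27 to 1.58 in AAV-miR SOD1. Slc18a3 over Chat was 2.26 to 2.57 in the controls numbered 5 or 6, 1.5 to 2.26 in those numbered 1 to 4 and 1.69 to 2.16 in AAV-miR SOD1. Slc5a7 over Chat (1.61 to 1.83 and 1.49 to 2.03) and Slc10a4 over Chat (0.75 to 1.07 and 0.74 to 1.13) overlapped between these controls. The part of the replicate number in these ratios was not tested, because the labels do not say what a number stands for. The controls numbered 5 or 6 were also the deepest libraries, at 29.7 to 37.4 megacounts, and the part of depth was not tested either.

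Other genes of the pathway were read from lists by role. Among genes that supply choline and acetyl groups, 12 of 13 were tested. At an unadjusted edgeR p under 0.05, 0 were called against AAV-miR ctrl, and 3 were lower and 1 higher against non-injected (11.5% and 9.36% of all genes). Against both control groups 2 were lower and 1 higher, where 12.1% and 10.2% of all genes were. Acly, the citrate lyase that makes cytosolic acetyl-CoA, was at 431 ± 168 CPM (SD, n = 4) in AAV-miR SOD1, 547 ± 146 (SD, n = 5) in AAV-miR ctrl and 933 ± 387 (SD, n = 4) in non-injected, a log2 fold change of -0.73 ± 0.29 (SE) relative to both control groups (edgeR adjusted p = 0.164). Pemt, which methylates phosphatidylethanolamine to a choline lipid, had -0.63 ± 0.27 (adjusted p = 0.191). Chdh, which oxidises choline to betaine aldehyde, was on the other side with 0.84 ± 0.37 (adjusted p = 0.204), at 1.64 to 8.77 CPM.

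The vesicular proton pump, whose gradient drives Slc18a3, had 16 of 16 subunit genes tested and 16 negative log2 fold changes against both control groups, with a median of -0.49, where 54.2% of all genes were negative. At an unadjusted edgeR p under 0.05, 9 were lower against AAV-miR ctrl (8.54% of all genes), 11 against non-injected (11.5%) and 13 against both (12.1%), and 0 passed the adjusted threshold. Atp6v1e1, the most abundant, was at 493.2 ± 46.9 CPM (SD, n = 4) in AAV-miR SOD1, 674 ± 112 (SD, n = 5) in AAV-miR ctrl and 714 ± 123 (SD, n = 4) in non-injected. Its log2 fold change was -0.49 ± 0.18 (SE), while Atp6v1h (-1.04 ± 0.29) and Atp6v0e2 (-0.96 ± 0.26) lay close to the cholinergic genes, and Atp6ap2 at -0.60 ± 0.19. The edgeR adjusted p of these 4 ran from 0.0962 to 0.139. The pump also acidifies other organelles, and its genes are expressed in most cells.

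The partners that anchor cholinesterase were scarce. Colq, the collagen tail of the synaptic form, was at 1.51 to 18.2 CPM, and its log2 fold change was -1.04 ± 0.62 (SE) relative to both control groups (edgeR adjusted p = 0.343). Prima1, the membrane anchor of the neuronal form, was at 3.32 to 6.45 CPM with -0.10 ± 0.27 (adjusted p = 0.871), and Bche, the related butyrylcholinesterase, had 0.10 ± 0.52 (adjusted p = 0.933). Of these, 0 of 3 were called at an unadjusted edgeR p under 0.05.

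Most genes of acetylcholine receptors were low or had too few reads to be tested. Of 16 nicotinic subunit genes 11 were tested, and at an unadjusted edgeR p under 0.05, 2 were lower against both control groups (12.1% of all genes). Against AAV-miR ctrl 2 were lower and 1 was higher (8.54% and 5.99% of all genes), and against non-injected 0 were called. Chrnb2 was at 5.73 ± 2.71 CPM (SD, n = 4) in AAV-miR SOD1, 12.9 ± 5.56 (SD, n = 5) in AAV-miR ctrl and 10.3 ± 3.11 (SD, n = 4) in non-injected, a log2 fold change of -1.01 ± 0.36 (SE) relative to both (adjusted p = 0.130). Chrna3 had at most 4 counts in an AAV-miR SOD1 library and 0 counts in at least 1 library of each group. Chrna2 had at most 38 counts in a library of AAV-miR SOD1, 12 in AAV-miR ctrl and 113 in non-injected. The highest subunit was Chrna1, best known from muscle, at 1.20 to 38.9 CPM with a log2 fold change of -0.32 ± 0.76 (adjusted p = 0.851). Of 5 muscarinic receptor genes only Chrm2 was tested, the gene of the M2 receptor that motoneurons carry. It was at 39.6 ± 6.28 CPM (SD, n = 4) in AAV-miR SOD1, 67.5 ± 16.3 (SD, n = 5) in AAV-miR ctrl and 66.2 ± 23.0 (SD, n = 4) in non-injected. Its highest AAV-miR SOD1 value, 45.2 CPM, lay just below the lowest control, 46.0 CPM, and 1.23% of all genes were lower without overlap. The log2 fold change of Chrm2 against both was -0.75 ± 0.22 (SE, edgeR adjusted p = 0.102). At an unadjusted edgeR p under 0.05 it was lower in each of the 3 comparisons, where 8.54%, 11.5% and 12.1% of all genes were.

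Of the 5 helpers of nicotinic receptors, 5 had negative log2 fold changes against both control groups, where 54.2% of all genes did, and 0 passed the adjusted threshold. At an unadjusted edgeR p under 0.05, 2 were lower against AAV-miR ctrl (8.54% of all genes), 4 against non-injected (11.5%) and 4 against both (12.1%). Tmem35a, the chaperone NACHO, was at 35 ± 8.59 CPM (SD, n = 4) in AAV-miR SOD1, 67.9 ± 22.7 (SD, n = 5) in AAV-miR ctrl and 79.0 ± 27.6 (SD, n = 4) in non-injected, a log2 fold change of -1.06 ± 0.27 (SE, adjusted p = 0.0960). The chaperone Ric3 had -0.88 ± 0.25 (adjusted p = 0.101), the Ly6 proteins Ly6h -0.90 ± 0.30 (adjusted p = 0.119) and Lynx1 -0.59 ± 0.28 (adjusted p = 0.234).

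A list of transcription regulators tied to motoneuron or cholinergic identity had 8 tested genes, among them Rest, a repressor of neuronal genes. At an unadjusted edgeR p under 0.05, 2 of 8 were lower against AAV-miR ctrl (8.54% of all genes), 3 against non-injected (11.5%) and 4 against both control groups (12.1%). Isl1, which with Lhx3 switches on cholinergic genes in the embryo, had a log2 fold change of -1.47 ± 0.48 (SE, edgeR adjusted p = 0.114), Mnx1 -1.15 ± 0.37 (adjusted p = 0.109) and Isl2 -1.03 ± 0.47 (adjusted p = 0.212). Levels were low, with Isl1 at 1.77 to 6.05 CPM in AAV-miR SOD1, 2.39 to 16.4 in AAV-miR ctrl and 7.43 to 21.0 in non-injected. Lmo4, the highest of the list at 82.3 ± 25.2, 76.0 ± 5.66 and 71.3 ± 21.4 CPM (SD, n = 4, 5 and 4), had 0.16 ± 0.20 (adjusted p = 0.694).

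Of 4 genes of signals that motoneurons release beside acetylcholine, 3 were lower at an unadjusted edgeR p under 0.05 in each of the 3 comparisons, where 8.54%, 11.5% and 12.1% of all genes were. Calca, the gene of calcitonin gene-related peptide, was at 319 ± 101 CPM (SD, n = 4) in AAV-miR SOD1, 724 ± 389 (SD, n = 5) in AAV-miR ctrl and 797 ± 360 (SD, n = 4) in non-injected, a log2 fold change of -1.25 ± 0.41 (SE, adjusted p = 0.115). Its close paralog Calcb had -1.07 ± 0.36 (adjusted p = 0.121), and the counting of reads that fit both is uncertain. Nrg1, a neuregulin of neuromuscular synapses, had -0.69 ± 0.25 (adjusted p = 0.134).

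Relatives of the carrier genes had values of both signs. There were 6 other SLC10 genes listed and 3 tested. Against both control groups Slc10a7 was higher at 0.48 ± 0.18 (SE, edgeR adjusted p = 0.148, unadjusted p under 0.05), Slc10a3 was at 0.21 ± 0.23 (adjusted p = 0.629) and Slc10a6 at -1.37 ± 1.04 (adjusted p = 0.473). Among transporters of other transmitters, Slc18a2, the vesicular monoamine transporter, had 0.19 ± 0.21 (adjusted p = 0.632), Slc18a1 -0.92 ± 0.42 (adjusted p = 0.210, unadjusted p under 0.05) at 2.0 to 9.45 CPM, and Slc6a5, the glycine transporter of inhibitory neurons, -0.25 ± 0.31 (adjusted p = 0.691). At an unadjusted edgeR p under 0.05 against both control groups, 1 of 7 tested genes of this second list was lower (12.1% of all genes). Of the SLC10 genes 1 of 3 was higher (10.2%). The difference between these genes and the 5 cholinergic genes was not tested.

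**Figure D5:**
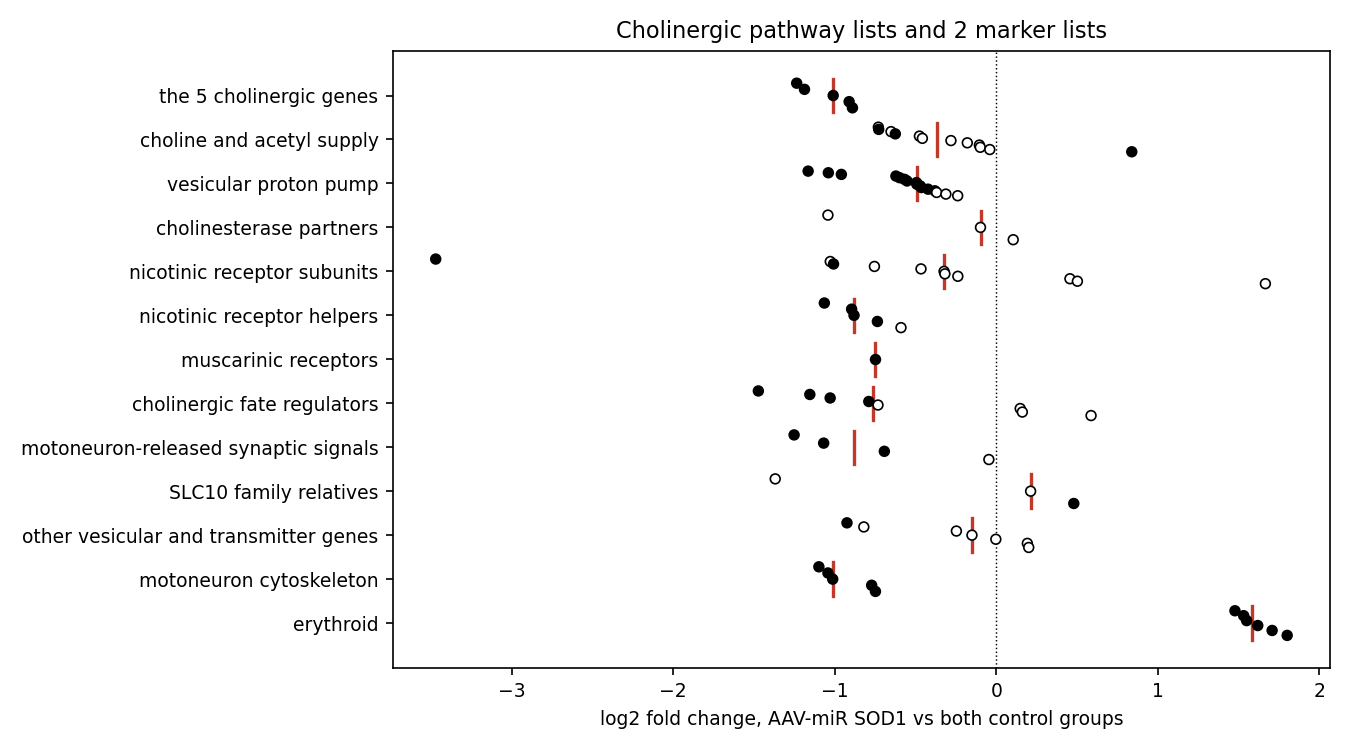
Log2 fold change of AAV-miR SOD1 against both control groups (horizontal axis) for each tested gene of the cholinergic pathway lists and of 2 marker lists. Filled points have an unadjusted edgeR p under 0.05, open points do not, and red lines are list medians. The cholinergic genes and the motoneuron cytoskeleton both have a median of -1.01, while the erythroid genes have 1.58.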

How the data were processed

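The 13 libraries were made from laser-captured motoneurons with a low-input cDNA kit and a transposase library kit, per the labels' protocols. The authors deposited raw read counts per Ensembl gene, 1 table per library. Per the submitters' processing notes, cutadapt 1.8, STAR 2.5.2b, HTSeq 0.6.1 and GRCm38 were used, while the annotation release and strand setting are not given in the sources used here. Summary rows that name no gene, 47.0% to 61.6% of each table and mostly reads aligned to several places, were left out. Symbols came from GENCODE M21 for 48349 of 48709 identifiers, and exonic lengths from its GRCm38 annotation.

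Counts were tested in R 4.3.3 with edgeR 4.0.16 (filterByExpr with a minimum count of 10, TMM scaling, quasi-likelihood fit on 13 libraries in 3 groups, 4 comparisons, Benjamini-Hochberg over all genes, threshold 0.05). CPM were computed on TMM-scaled totals, and ratios to Chat with a pseudocount of 0.5. The fit was tested on simulated data. Alternatives were other scalings and filters, DESeq2 1.42.0, limma-voom (limma 3.58.1), covariates, a replicate block, other sets of libraries and leaving out each library. DESeq2 with the header exchange and on libraries numbered 1 to 4 were chosen after seeing the data. The genes and lists were chosen with earlier results of these data known. Of each pathway list the text names the most abundant gene and up to 3 tested genes with the smallest p against both control groups, and besides the 5 genes most like the cholinergic mean in each of 2 measures. A few genes of the marker lists are not reported here and were left out of the sums. Libraries are separate mice per the labels.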

Additional observations from a re-analysis of the deposited data

Results flagged for a closer look

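The ratio of Slc18a3 to Chat in AAV-miR SOD1 replicate 2 stood apart from the other 3 libraries of its group, at 2.16 on the log2 scale against 1.69 to 1.77. It lay inside the range of the controls, 1.5 to 2.57. Of 27 groups of values looked at in this way, 1 had such a library, where chance gives about 1 in 20, or 1.35.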

How the results depend on the processing

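Under every alternative and with each library left out, the 5 log2 fold changes of AAV-miR SOD1 stayed negative in its 3 comparisons, and by edgeR 4 of them (not Slc10a4, adjusted p = 0.0516) passed the adjusted threshold, only against both control groups and only without replicate 1 of AAV-miR ctrl. The cause of the changes below was not tested. By DESeq2, 173 genes were called against AAV-miR ctrl, 996 against non-injected and 1480 against both control groups, and 2 between the control groups. The fold changes that passed were -0.95 for Chat, -1.04 for Slc5a7 and -1.32 for Slc18a3 against non-injected, and -0.88, -0.98, -1.20, -1.15 and -0.86 for Chat, Slc5a7, Slc18a3, Ache and Slc10a4 against both. Limma-voom called 1461 genes against both, with -0.83 for Chat, -0.95 for Slc5a7, -1.12 for Slc18a3 and -0.82 for Slc10a4, and edgeR without a low count filter called 1. DESeq2 with the header exchange called 1336, 64, 9 and 1408 genes in the order AAV-miR ctrl, non-injected, between controls and both. There Chat, Slc5a7, Slc18a3, Ache and Slc10a4 passed at -1.02, -1.14, -1.37, -1.30 and -1.04 against AAV-miR ctrl and at -0.84, -0.93, -1.15, -1.11 and -0.81 against both. DESeq2 on libraries numbered 1 to 4 called 18, 400, 32 and 290 genes in that order, with Chat at -1.11 and Slc5a7 at -1.28 against non-injected and Slc5a7 at -0.95 against both. Between the control groups, the header exchange turned the values of the 5 genes to 0.35, 0.40, 0.43, 0.35 and 0.46 by edgeR and 0.37, 0.41, 0.44, 0.37 and 0.47 by DESeq2. Leaving out 1 library at a time, the fold changes against both control groups ran from -1.01 to -0.72 for Chat, -1.10 to -0.85 for Slc5a7, -1.47 to -1.02 for Slc18a3 and -1.29 to -0.95 for Ache, and the genes called from 0 to 1694. Besides the 1694 without replicate 1 of AAV-miR ctrl, 121 were called without AAV-miR SOD1 replicate 3. Between controls they ran from -0.29 to 0.053 for Chat, -0.28 to 0.18 for Slc5a7 and -0.30 to 0.16 for Slc10a4, positive only without non-injected replicate 3.

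With the replicate block in the edgeR fit, the fold changes against both control groups were -0.78 for Chat, -0.81 for Slc5a7, -0.75 for Slc18a3, -0.54 for Ache and -0.70 for Slc10a4, and 0.0055 for Slc10a4 between control groups. As without it, 0 genes passed the adjusted threshold. At an unadjusted p under 0.05 it called 1 of the 5 genes against AAV-miR ctrl, 2 against non-injected and 2 against both, instead of 5 in each. The 8 pairs of libraries with one number had correlations of -0.189 to 0.243, of which 3 were over 0.1, and 3 of 13 libraries correlated best with their own number, so the numbers were not taken to pair mice.

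No ratio to Chat passed under any alternative, and the values that changed sign follow. Relative to the mean of the other 4 genes, Slc5a7 was at 0.0041, 0.098 and 0.046 against AAV-miR ctrl, non-injected and both. Among libraries numbered 1 to 4, Slc18a3 was at 0.066 and Ache at 0.18 against AAV-miR ctrl, Ache at 0.17 and Slc10a4 at -0.00043 against non-injected, Slc5a7 at -0.00090 and Slc10a4 at -0.066 between controls, and Slc18a3 at 0.0092 and Ache at 0.17 against both. The header exchange gave -0.0072 for Slc10a4 against AAV-miR ctrl and 0.056 for Slc18a3 between controls. Leaving out 1 library at a time, the ratio differences against AAV-miR ctrl ran from -0.21 to 0.032 for Slc5a7, -0.26 to 0.0024 for Ache and -0.093 to 0.088 for Slc10a4. Against non-injected they ran from -0.16 to 0.081 for Slc5a7 and -0.061 to 0.12 for Slc10a4, and against both from -0.19 to 0.054 and -0.079 to 0.10. Between controls they ran from -0.018 to 0.12 for Slc5a7, -0.33 to 0.0047 for Slc18a3, -0.32 to 0.10 for Ache and -0.031 to 0.096 for Slc10a4.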
